A study of Mus musculus with 17 samples.

Results

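Wild-type mouse pluripotent cells of the 129/B6 (v6.5) strain were set against wild-type pluripotent cells of the C57/B6 strain, with embryonic stem cells (ESC) and induced pluripotent stem cells (iPSC) pooled on each side. The samples were chosen by their labelled strain, genotype and cell type, and come to 7 of the 17 samples of the series. The 129/B6 side held 2 WT ESC samples at passages 10 to 15 and 1 WT iPSC sample at passage 6. The C57/B6 side held 2 WT ESC and 2 WT iPSC samples, all at passages 10 to 15. None of the 7 carries the Nanog deletion after which the series is named. The labels give one growth text for the series, in which mouse embryonic fibroblasts (MEF) were reprogrammed with retroviruses for Klf4, Sox2 and Oct4 and, in some cases, c-Myc. Picked iPS colonies and the Nanog-null ESC were kept on feeder cells in LIF with inhibitors (2i). The text does not say how the WT ESC were grown, which of 2 sequencing sites handled which sample, or whether replicates came from separate cultures. P-values therefore measure only the spread between these samples, which may be technical. The sample codes carry one prefix in 129/B6 and another in C57/B6. Strain, code prefix, any difference of site or medium, and for the iPSC the passage, cannot be told apart. The labels do not say whether the iPSC samples are separate clones.

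Mouse pluripotent cells can be held in a naive state, resembling the epiblast before implantation, by LIF acting through STAT3 and by inhibitors of MEK and GSK3. MEK inhibition lowers ERK signalling, whose rapid targets and feedback inhibitors serve as its readout, and GSK3 inhibition frees beta-catenin, which relieves repression by Tcf7l1. Naive cells in such media are known for low levels of the de novo methylation machinery, while cells in serum and LIF carry more DNA methylation and more ERK output. The results below give the RNA of genes from each of these systems on each side and do not show which medium was used.

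Libraries held 20.8 to 26.9 M assigned fragments in 129/B6 and 7.80 to 30.1 M in C57/B6. Levels are the authors' FPKM, fragments scaled to transcript length and to a library scale set in the authors' processing. The log2 change is that of 129/B6 over C57/B6 from edgeR on rounded fragment counts, given ± its standard error, and a gene was called at an adjusted p under 0.05 over all genes tested. Pluripotency markers were present in all 7 libraries, with Pou5f1 at 639.5 to 760 FPKM in 129/B6 and 1111 to 1585 FPKM in C57/B6, and Pou5f1 was listed at 0 in both C57/B6 MEF libraries. The median absolute log2 difference between libraries was 0.598 to 0.823 across sides. It was 0.08 between the 129/B6 ESC pair, 0.298 and 0.3 between these and 129/B6 iPSC 1, and 0.119 to 0.291 among the C57/B6 libraries. 129/B6 iPSC 1 therefore stood apart on its side, and C57/B6 ESC 4, with the fewest fragments, gave the 3 largest distances on the other. Values without 129/B6 iPSC 1 are given below where that library changed a result. The FPKM of all genes summed to 579151 to 667351 in 129/B6 and 1084756 to 1614854 in C57/B6. FPKM did not follow library totals: by limma on FPKM the median log2 change was -0.08 over the 13368 genes tested there. With edgeR it was 0.07 with TMM and 0.54 with library totals in place of TMM. An FPKM ratio and a TMM-scaled log2 change of the same gene can still differ. No pair was a duplicate, since the smallest chi-square per gene between libraries was 3.87.

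Of 15033 genes tested, edgeR called 10240, or 68.1%, of which 5478 (36.4%) were higher and 4762 (31.7%) lower in 129/B6. These shares are the background for every count of members below that comes from this fit. Counts without TMM have the split given next as their background. For counts without 1 library, 4824 to 5885 of all genes were higher and 4192 to 5333 lower. With library totals in place of TMM scaling the calls split into 7546 higher and 2960 lower, and the median change of all genes moved to 0.54, against 0.07 with TMM. The changes below are relative to the TMM scale. Whether the side difference itself differed between ESC and iPSC was tested as an interaction, which was called for 1578 genes, or 10.5%. The 129/B6 iPSC arm of that test is 1 library, assumed to vary like the others, so a difference between cell types and that library standing apart cannot be told apart. The Y-linked gene Eif2s3y was low in 129/B6 iPSC 1 and both C57/B6 ESC, and higher in the 129/B6 ESC and the C57/B6 iPSC. Its level follows the same contrast as the interaction, so the 2 cannot be told apart either. The 2 sides also differed by gene length. Among genes other than those of cytosolic ribosomal proteins, the median log2 change was -1.09 in the decile with the shortest exon length (171 to 1589 bases) and 0.94 in the longest (9694 to 123179 bases). The part of this gradient in the results on short and long genes was not tested.

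**Figure D1:**
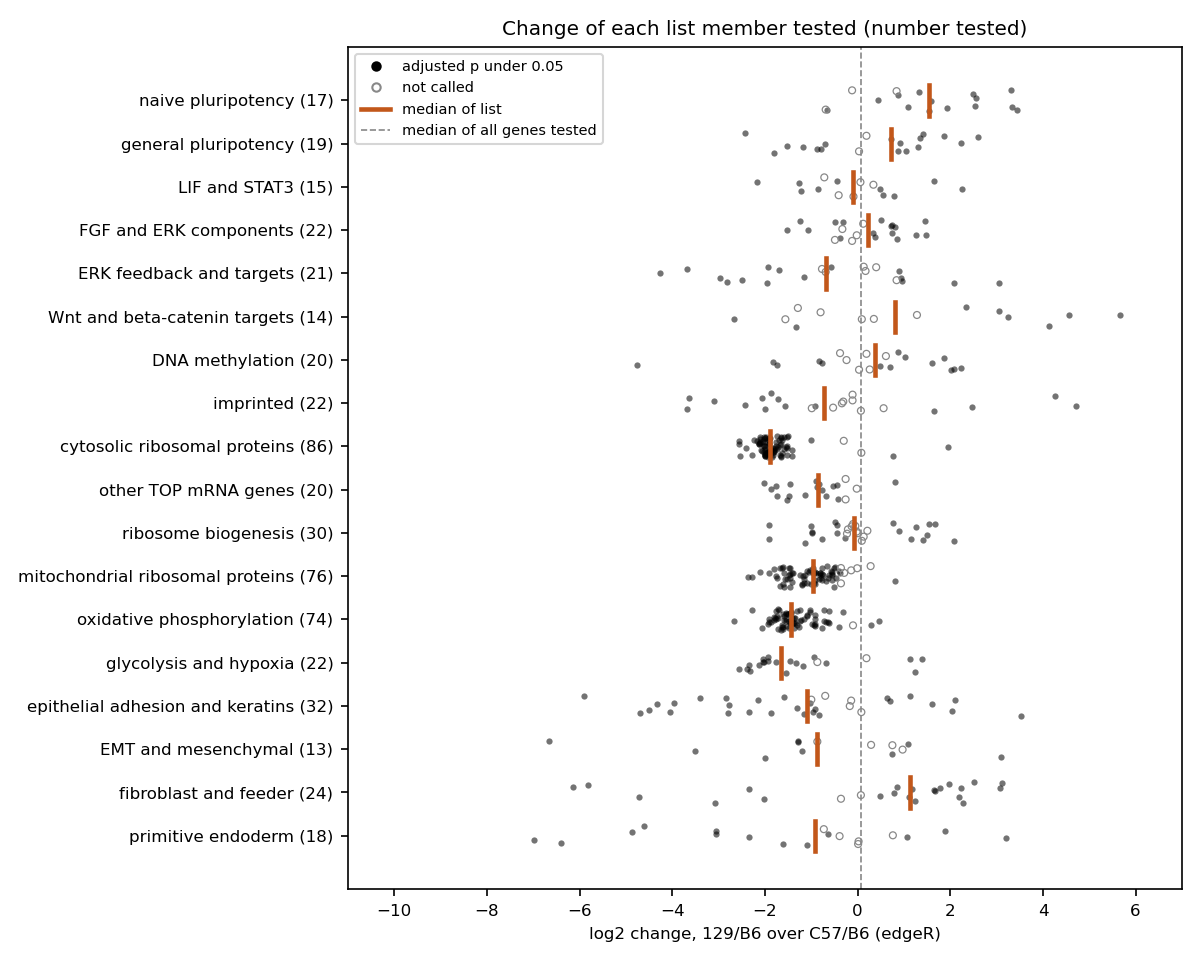
Log2 change of 129/B6 over C57/B6 (x axis, edgeR) for each tested member of 18 gene lists (y axis, number tested in parentheses), with filled points called, open points not called, bars at list medians and a dashed line at the median of all genes. The naive list has its median at 1.55 and the cytosolic ribosomal protein list at -1.90, and most points of the ribosomal list sit in a narrow band.

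The naive pluripotency factors were mostly higher in 129/B6. Of 17 members tested, 13 were higher, 1 was lower and 3 were not called, against 36.4% of all genes called higher, and the list's median log2 change was 1.55. Nanog, a homeodomain factor of the pluripotency network, had 568, 574 and 762 FPKM in 129/B6 against 295, 323, 286 and 270.1 FPKM in C57/B6 (log2 change 1.09 ± 0.14, adjusted p = 9.7e-05). Every 129/B6 library was above every C57/B6 library. The share of all genes whose sides do not overlap is not given, so lack of overlap, here and below, does not set a gene apart. Here and below, 129/B6 values are in the order ESC 1, ESC 2 and iPSC 1, and C57/B6 values in the order ESC 3, ESC 4, iPSC 2 and iPSC 3. Klf2, a Krüppel-like factor of the naive network, had 98.98, 98.3 and 108 FPKM in 129/B6 against 24.02, 14.8, 16.5 and 18.2 FPKM in C57/B6 (log2 change 2.56 ± 0.15, adjusted p = 3.4e-06). Klf4, another factor of this family and one of the reprogramming factors, had 65.3, 65 and 57.6 FPKM in 129/B6 against 12.03, 14.1, 9.51 and 10.2 FPKM in C57/B6 (log2 change 2.53 ± 0.15, adjusted p = 3.4e-06). The retroviruses carried murine Klf4, Oct4 and Sox2, so in iPSC fragments of the endogenous and the retroviral gene cannot be told apart. In the ESC alone, which were not reprogrammed, the log2 changes of Klf4, Pou5f1 and Sox2 were 2.37, -0.69 and 0.65, in the same directions as over all libraries.

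Tfcp2l1, a transcription factor that sustains self-renewal downstream of LIF, had 72.3, 78.8 and 93.2 FPKM in 129/B6 against 9.11, 11.7, 6.7 and 7.33 FPKM in C57/B6 (log2 change 3.32 ± 0.21, adjusted p = 4e-06). Tbx3, a T-box factor of the same network, had 41.1, 46.5 and 69.8 FPKM in 129/B6 against 7.41, 9.797, 5.58 and 6.31 FPKM in C57/B6 (log2 change 3.34 ± 0.17, adjusted p = 2.2e-06). The sides did not overlap for either gene, and 129/B6 iPSC 1 was the highest library for both. Klf5 showed 38.9, 40.5 and 43.2 FPKM in 129/B6 against 2.43, 7.298, 3.67 and 3.13 FPKM in C57/B6 (log2 change 3.43 ± 0.31, adjusted p = 1.8e-05), with ESC 4 the highest of the C57/B6 libraries. Nr5a2, a nuclear receptor that drives Pou5f1, stood at 17.5, 18.4 and 10.2 FPKM in 129/B6 against 2.46, 5.12, 1.94 and 2.28 FPKM in C57/B6 (log2 change 2.5 ± 0.34, adjusted p = 0.00017). Prdm14, which represses FGF signalling genes and de novo methyltransferase genes in mouse ESC, had 22.3, 23.5 and 29.4 FPKM in 129/B6 against 7.29, 8.05, 6.402 and 6.56 FPKM in C57/B6 (log2 change 1.92 ± 0.15, adjusted p = 8.9e-06). Prdm14 was low in the C57/B6 libraries without exception.

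Not all naive markers moved this way. Zfp42, which encodes Rex1, had 227, 220.4 and 55.3 FPKM in 129/B6 against 59.9, 61.4, 54.5 and 58.5 FPKM in C57/B6 (log2 change 1.59 ± 0.38, adjusted p = 0.0047). Its rise was that of the ESC pair: 129/B6 iPSC 1 lay within the C57/B6 range, and the interaction was called (iPSC minus ESC -1.88 on the log2 scale, adjusted p = 0.0011). Tcl1, a co-activator of Akt, was the member called lower, with 54.3, 57.6 and 29.9 FPKM in 129/B6 against 100.5, 76.8, 66.2 and 62.6 FPKM in C57/B6 (log2 change -0.67 ± 0.25, adjusted p = 0.038), and was no longer called without 129/B6 iPSC 1 (log2 change -0.42, adjusted p = 0.053), C57/B6 ESC 3 or C57/B6 ESC 4. Dppa3, a maternal factor that protects methylation marks, was not called, with 119, 134 and 25.3 FPKM in 129/B6 against 214, 130.5, 147 and 140.2 FPKM in C57/B6 (log2 change -0.69 ± 0.46, adjusted p = 0.2). Fgf4, the autocrine ligand of ERK signalling, was not called, with 82.9, 79.2 and 75.9 FPKM in 129/B6 against 88.6, 87.02, 93.04 and 97.8 FPKM in C57/B6 (log2 change -0.12 ± 0.10, adjusted p = 0.28). Esrrb was left out of the tests because the authors' quantification failed for it in 129/B6 ESC 1 and iPSC 1. It was 167 FPKM in 129/B6 ESC 2, against 50.3, 54.7, 44.4 and 47.4 FPKM in C57/B6.

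**Figure D2:**
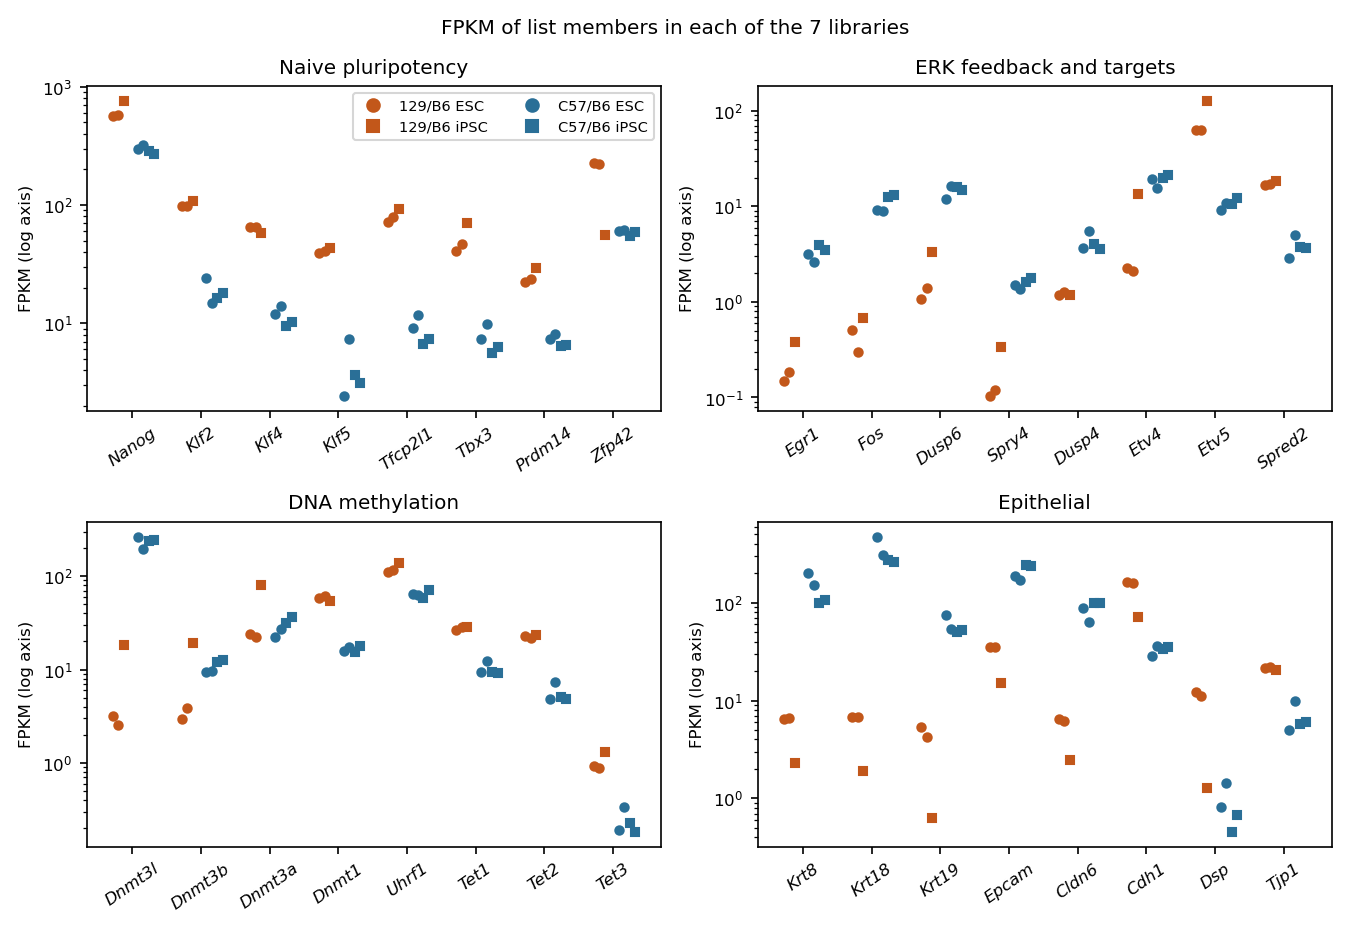
FPKM on a log axis of 8 members of each of 4 lists in the 7 libraries, 129/B6 to the left of C57/B6 for each gene, circles for ESC and squares for iPSC. Klf2, Klf4 and Tfcp2l1 are higher in every 129/B6 library and Egr1, Fos and Krt18 lower, while the 129/B6 iPSC square stands apart from the 129/B6 ESC circles for Zfp42, Dnmt3b, Dnmt3l and Dsp.

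General pluripotency genes went both ways, with 10 of 19 tested higher and 7 lower. Pou5f1, which encodes Oct4, was lower, with 757, 759.9 and 639.5 FPKM in 129/B6 against 1585, 1111, 1448 and 1435 FPKM in C57/B6 (log2 change -0.80 ± 0.14, adjusted p = 0.00073). Sox2, its partner, was higher, with 141, 142 and 156 FPKM in 129/B6 against 84.8, 104, 91.4 and 95.9 FPKM in C57/B6 (log2 change 0.73 ± 0.11, adjusted p = 0.0004). The sides did not overlap for either. Tdgf1, the co-receptor of Nodal, was lower, with 299, 306 and 377 FPKM in 129/B6 against 899, 897, 1155 and 1069 FPKM in C57/B6 (log2 change -1.53 ± 0.15, adjusted p = 2.4e-05). Lefty2, an inhibitor of Nodal, was higher, with 119.8, 123 and 56.4 FPKM in 129/B6 against 17.2, 16.8, 18.1 and 19.04 FPKM in C57/B6 (log2 change 2.59 ± 0.25, adjusted p = 2.3e-05). Utf1, a chromatin-associated factor of pluripotent cells, was lower (log2 change -1.8), as was Dppa5a (log2 change -1.17). Lin28a, which blocks maturation of let-7 microRNAs, had 4.25, 4.68 and 14.2 FPKM in 129/B6 against 39.4, 42.04, 44.6 and 49.6 FPKM in C57/B6 (log2 change -2.44 ± 0.39, adjusted p = 0.00046). Its level in 129/B6 iPSC 1 lay between the ESC pair and the C57/B6 libraries (log2 change -3.22 without 129/B6 iPSC 1, adjusted p = 5.2e-08).

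Genes of formative and primed epiblast split, with 5 of 17 tested higher and 4 lower, and their median of -0.38 became 0.08 without TMM. Fgf5 and Pou3f1, markers of the epiblast after implantation, were lower, although at FPKM of 2.08 or less in every library. Otx2, a homeodomain factor of formative cells, had 7.97, 9.29 and 0.544 FPKM in 129/B6 against 12.2, 15.9, 18.2 and 15.1 FPKM in C57/B6 (log2 change -1.48 ± 0.67, adjusted p = 0.075). Its sides did not overlap, but 129/B6 iPSC 1 was far below the ESC pair and it was not called. Without that library it was called lower (log2 change -0.94, adjusted p = 0.00033), as it was without 129/B6 ESC 2. Foxd3, a forkhead factor, was higher (log2 change 3.01), as was Zic2, a zinc finger factor (log2 change 2.48).

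The LIF pathway did not move as a block. Of 15 members tested, 5 were higher and 5 lower, and the higher count was 3 without 129/B6 iPSC 1, C57/B6 ESC 3, C57/B6 iPSC 2 or C57/B6 iPSC 3. Socs3, the feedback inhibitor that STAT3 induces, was lower in 129/B6, with 5.21, 5.17 and 5.84 FPKM in 129/B6 against 14.3, 13.2, 12.4 and 12.99 FPKM in C57/B6 (log2 change -1.26 ± 0.13, adjusted p = 4.1e-05). Junb, an immediate-early AP-1 gene, was also lower (log2 change -2.18), as was Spp1, which encodes osteopontin (log2 change -1.22). The signal transducer gene Stat3 had 16.99, 14.1 and 15.2 FPKM in 129/B6 against 9.67, 13.9, 9.01 and 9.03 FPKM in C57/B6 (log2 change 0.55 ± 0.14, adjusted p = 0.007), so it was higher by a small margin. The LIF receptor gene Lifr was not called (log2 change 0.06 ± 0.16, adjusted p = 0.77), and the shared co-receptor gene Il6st was higher (log2 change 0.78).

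Immediate targets and feedback inhibitors of ERK were lower in 129/B6 in 10 of 21 cases, higher in 5 and not called in 6, with a median log2 change of -0.69 against 31.7% of all genes called lower. Without 129/B6 iPSC 1, 15 were lower, where 5333 of all genes tested were lower. Without TMM 8 were lower and 6 higher, with a median of -0.21, where 2960 of all genes were lower and 7546 higher. Egr1, an immediate-early zinc finger gene, had 0.149, 0.186 and 0.385 FPKM in 129/B6 against 3.16, 2.63, 3.98 and 3.52 FPKM in C57/B6 (log2 change -3.68 ± 0.36, adjusted p = 2.8e-05). Fos, the other classical immediate-early gene, had 0.51, 0.297 and 0.686 FPKM in 129/B6 against 9.27, 8.91, 12.7 and 13.1 FPKM in C57/B6 (log2 change -4.26 ± 0.30, adjusted p = 6.1e-06). No 129/B6 library reached the lowest C57/B6 value for either gene. Dusp6, the phosphatase that dephosphorylates ERK and is induced by it, had 1.06, 1.41 and 3.33 FPKM in 129/B6 against 12.03, 16.2, 15.8 and 14.8 FPKM in C57/B6 (log2 change -2.83 ± 0.37, adjusted p = 0.00013). Spry4, a feedback inhibitor of receptor signalling, showed 0.104, 0.1205 and 0.335 FPKM in 129/B6 against 1.51, 1.36, 1.63 and 1.78 FPKM in C57/B6 (log2 change -2.96 ± 0.41, adjusted p = 0.00017). For both of them 129/B6 iPSC 1 was the highest of its side and the ESC difference was larger, with the interaction called (iPSC minus ESC 1.35 on the log2 scale, adjusted p = 0.027 for Dusp6, and iPSC minus ESC 1.35 on the log2 scale, adjusted p = 0.046 for Spry4).

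Plaur, the urokinase receptor gene, was lower (log2 change -2.49), as were Ier3 (log2 change -1.95) and Dusp4 (log2 change -1.7). Ier2, of the same list, was higher, with 68.9, 65.2 and 60.1 FPKM in 129/B6 against 38.8, 26.9, 37.3 and 43.6 FPKM in C57/B6 (log2 change 0.90 ± 0.15, adjusted p = 0.00049). The ETS factor gene Etv4 had 2.26, 2.13 and 13.6 FPKM in 129/B6 against 19.4, 15.5, 19.6 and 21.2 FPKM in C57/B6 (log2 change -1.93 ± 0.57, adjusted p = 0.014), with 129/B6 iPSC 1 close to the C57/B6 libraries (log2 change -3.31 without 129/B6 iPSC 1, adjusted p = 1.4e-07). Its relative Etv5 went the opposite way, with 63.8, 62.8 and 128 FPKM in 129/B6 against 9.25, 10.9, 10.5 and 12.3 FPKM in C57/B6 (log2 change 3.05 ± 0.25, adjusted p = 1.2e-05), as did the inhibitor gene Spred2, with 16.9, 17.1 and 18.6 FPKM in 129/B6 against 2.898, 5.08, 3.76 and 3.71 FPKM in C57/B6 (log2 change 2.07 ± 0.16, adjusted p = 1e-05). Spry2 was not called with all libraries (log2 change 0.17 ± 0.27, adjusted p = 0.59) and was lower without 129/B6 iPSC 1 (log2 change -0.31, adjusted p = 0.035). Ccnd1, which encodes cyclin D1, was likewise not called with all libraries (log2 change -0.77 ± 0.31, adjusted p = 0.052) and lower without that library (log2 change -1.39, adjusted p = 2e-06). Myc was called higher (log2 change 0.93 ± 0.33, adjusted p = 0.029), with overlapping sides. It was not called without 129/B6 iPSC 1 (log2 change 0.46, adjusted p = 0.066), C57/B6 ESC 4, C57/B6 iPSC 2 or C57/B6 iPSC 3. A c-Myc retrovirus was used in some cases, so retroviral fragments may enter the Myc values of the iPSC. In ESC alone the log2 change of Myc was 0.31.

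Components that carry the signal from FGF receptors to ERK were measured separately from its targets. Of 22 tested, 11 were higher and 6 lower, with a median of 0.23. Fgfr1, the receptor that predominates in ESC, was higher, with 27.7, 27.5 and 26.9 FPKM in 129/B6 against 13.3, 13.2, 10.3 and 11.3 FPKM in C57/B6 (log2 change 1.27 ± 0.12, adjusted p = 2.2e-05). Fgfr2 was lower, with 1.08, 1.09 and 1.78 FPKM in 129/B6 against 3.75, 8.48, 4.01 and 3.75 FPKM in C57/B6 (log2 change -1.24 ± 0.24, adjusted p = 0.0014), and C57/B6 ESC 4 was well above the other C57/B6 libraries. The adaptor genes Frs2 and Sos1 were higher (log2 changes 1.46 and 1.48), with exon lengths of 8747 and 10594 bases. Mapk3, which encodes ERK1, was lower, with 33.8, 36.4 and 19.2 FPKM in 129/B6 against 97.3, 80.8, 92.5 and 97.3 FPKM in C57/B6 (log2 change -1.53 ± 0.20, adjusted p = 0.00013), at an exon length of 2257 bases. Map2k1, which encodes MEK1, was not called (log2 change 0.12 ± 0.10, adjusted p = 0.33).

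Genes under Wnt and beta-catenin control, the arm that GSK3 restrains, were higher in 6 of 14 cases and lower in 2. Cdx1, a homeobox gene induced by Wnt, had 28.99, 32.3 and 42.5 FPKM in 129/B6 against 1.23, 0.442, 0.414 and 0.754 FPKM in C57/B6 (log2 change 5.67 ± 0.29, adjusted p = 2.2e-06). Notum, a secreted Wnt inhibitor gene induced by the pathway, had 9.51, 10.6 and 28.9 FPKM in 129/B6 against 1.66, 1.55, 0.537 and 1.12 FPKM in C57/B6 (log2 change 4.12 ± 0.47, adjusted p = 5.9e-05). Axin2, the most used reporter of beta-catenin activity, had 7.71, 6.44 and 9.01 FPKM in 129/B6 against 1.44, 1.44, 0.647 and 1.01 FPKM in C57/B6 (log2 change 3.04 ± 0.29, adjusted p = 2.4e-05). None of these overlapped between sides, and 129/B6 iPSC 1 was the highest library for all 3. Tcf7l1, the repressor that beta-catenin counters, was higher too, with 27.6, 25.02 and 53.1 FPKM in 129/B6 against 4.67, 5.12, 2.98 and 3.94 FPKM in C57/B6 (log2 change 3.25 ± 0.25, adjusted p = 8.4e-06). Ascl2 was lower, with 0.4602, 0.4304 and 1.67 FPKM in 129/B6 against 6.45, 5.07, 6.31 and 5.41 FPKM in C57/B6 (log2 change -2.66 ± 0.46, adjusted p = 0.00074), and Tcf7 was not called (log2 change 0.09). Lef1 had 0.538, 0.5401 and 2.96 FPKM in 129/B6 against 3.52, 2.88, 2.63 and 2.48 FPKM in C57/B6. It was not called over all libraries (log2 change -0.80 ± 0.56, adjusted p = 0.23), was lower in ESC alone (log2 change -2.30), and the interaction was called (iPSC minus ESC 2.78 on the log2 scale, adjusted p = 0.00078).

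For DNA methylation, 9 of 20 genes tested were higher, 5 lower and 6 not called. Dnmt3l, the cofactor that stimulates the de novo methyltransferases, had 3.21, 2.53 and 18.6 FPKM in 129/B6 against 265, 195, 236 and 247 FPKM in C57/B6 (log2 change -4.76 ± 0.68, adjusted p = 0.00022). It had the largest change of the list and no overlap, and without 129/B6 iPSC 1 the fall was larger (log2 change -6.26, adjusted p = 1.7e-08). Dnmt3b, a de novo methyltransferase gene, had 2.94, 3.83 and 19.4 FPKM in 129/B6 against 9.41, 9.54, 12.01 and 12.6 FPKM in C57/B6 (log2 change -0.38 ± 0.58, adjusted p = 0.58). It was not called: 129/B6 iPSC 1 was above and the 129/B6 ESC were below all C57/B6 libraries. Without 129/B6 iPSC 1 it was called lower (log2 change -1.83, adjusted p = 6.2e-06), iPSC alone gave 0.57, and the interaction was called (iPSC minus ESC 2.24 on the log2 scale, adjusted p = 0.0013). Dnmt3a, the other de novo gene, had 24.1, 22.2 and 80.7 FPKM in 129/B6 against 22.6, 27.3, 31.7 and 36.5 FPKM in C57/B6 (log2 change 0.61 ± 0.36, adjusted p = 0.16), and again 129/B6 iPSC 1 was the highest library. It was not called over all libraries, and was called higher without 129/B6 ESC 2.

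Dnmt1, which copies methylation after replication, was higher in all 129/B6 libraries, with 58.2, 60.6 and 53.9 FPKM in 129/B6 against 15.98, 17.5, 15.6 and 17.9 FPKM in C57/B6 (log2 change 1.87 ± 0.11, adjusted p = 2.5e-06). Uhrf1, which recruits it to new DNA, was higher as well, with 112, 117 and 138 FPKM in 129/B6 against 63.8, 62.6, 57.8 and 71.4 FPKM in C57/B6 (log2 change 1.03 ± 0.12, adjusted p = 7.5e-05). Tet1 and Tet2, the dioxygenases that oxidise methylcytosine, were both higher. Tet1 had 26.4, 28.7 and 28.8 FPKM in 129/B6 against 9.44, 12.3, 9.45 and 9.29 FPKM in C57/B6 (log2 change 2.09 ± 0.15, adjusted p = 6.3e-06; 1.39 by limma on FPKM). Tet2 had 23.1, 21.8 and 23.4 FPKM in 129/B6 against 4.86, 7.45, 5.09 and 4.81 FPKM in C57/B6 (log2 change 2.01 ± 0.17, adjusted p = 1.2e-05). Their exon lengths were 15457 and 16870 bases, in the longest decile, whose median log2 change was 0.94. Zfp57, which protects methylated imprints, was higher (log2 change 0.87), as was Hells, a chromatin remodeller needed for methylation (log2 change 0.69, and 1.48 by limma on FPKM). Mbd3 (log2 change -0.83), Gadd45a (log2 change -1.82) and Gadd45b (log2 change -1.75) were lower. These are RNA levels, and DNA methylation itself was not measured.

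Genes known to respond to methylation were also read. Germline genes split into 7 higher and 3 lower of 20 tested, with a median of 0.38 that became -0.01 by limma on FPKM. Dazl, an RNA-binding protein gene of germ cells, was higher (log2 change 2.87), while Sycp3 (log2 change -1.88) and Mael (log2 change -1.35) were lower. Imprinted genes were lower in 10 of 22 cases and higher in 4. H19, a maternally expressed non-coding RNA, had 67.1, 63.4 and 71.2 FPKM in 129/B6 against 813, 506, 829 and 778 FPKM in C57/B6 (log2 change -3.11 ± 0.15, adjusted p = 1.7e-06). Igf2, its paternally expressed neighbour, had 13.1, 13.1 and 22.5 FPKM in 129/B6 against 137, 113, 93.3 and 89.1 FPKM in C57/B6 (log2 change -2.07 ± 0.26, adjusted p = 9.5e-05). Both genes of this locus were lower in all 3 129/B6 libraries. Dlk1 (log2 change -3.65) and Nnat (log2 change -3.68) were lower too, while Plagl1 had 21.5, 21.9 and 26.7 FPKM in 129/B6 against 0.763, 1.86, 0.404 and 0.5796 FPKM in C57/B6 (log2 change 4.25 ± 0.37, adjusted p = 1.5e-05) and Igf2r was higher (log2 change 2.46). Grb10 was not called (log2 change 0.56 ± 0.35, adjusted p = 0.18): the C57/B6 ESC had 10.2 and 14.5 FPKM, while the C57/B6 iPSC had 31.0 and 31.3 FPKM, within the 129/B6 range of 27.0 to 35.3 FPKM.

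Cytosolic ribosomal protein genes were lower in 129/B6 with few exceptions. They encode the proteins of the ribosome, and their messages start with a tract of pyrimidines (the TOP motif) through which mTOR signalling controls their translation. The starts of the 3 genes with the largest falls (Rpl14, Rpl28 and Fau), of Rpl41, a gene with a large fall and no run, of Rpl15, which fell by less, and of 3 paralogs that were not lower (Rpl10l, Rpl39l and Rpl3l) are shown, from RefSeq on GRCm38.p6, from 60 bases before to 15 bases after the annotated start. Capitals mark the longest run of at least 8 pyrimidines (C or T, on the transcribed strand) that reaches within 15 bases of the start.
Rpl14: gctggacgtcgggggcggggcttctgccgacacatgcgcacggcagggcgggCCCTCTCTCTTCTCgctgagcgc
Rpl28: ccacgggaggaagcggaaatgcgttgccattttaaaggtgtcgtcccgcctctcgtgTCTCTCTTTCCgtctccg
Fau: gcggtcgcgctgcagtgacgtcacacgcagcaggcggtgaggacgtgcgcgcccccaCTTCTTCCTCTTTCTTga
Rpl41: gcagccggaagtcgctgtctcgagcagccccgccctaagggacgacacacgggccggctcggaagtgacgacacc
Rpl15: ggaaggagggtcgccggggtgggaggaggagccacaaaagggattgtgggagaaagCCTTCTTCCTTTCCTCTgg
Rpl10l: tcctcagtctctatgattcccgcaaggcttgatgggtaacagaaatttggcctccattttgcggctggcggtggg
Rpl39l: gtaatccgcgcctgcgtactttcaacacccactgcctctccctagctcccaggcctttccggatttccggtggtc
Rpl3l: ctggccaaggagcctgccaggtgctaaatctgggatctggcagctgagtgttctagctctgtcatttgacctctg
The windows lie at chr9:120571457-120571531 (+ strand) for Rpl14, chr7:4792905-4792979 (+ strand) for Rpl28, chr19:6057887-6057961 (+ strand) for Fau, chr10:128549154-128549228 (- strand) for Rpl41, chr14:18270972-18271046 (- strand) for Rpl15, chr12:66284387-66284461 (- strand) for Rpl10l, chr16:10170168-10170242 (+ strand) for Rpl39l and chr17:24727766-24727840 (+ strand) for Rpl3l. Such a run was found in 30 of the 63 ribosomal protein genes in the promoter table (47.6%), against 17.4% of 27025 promoters. All 30 with the run were called lower, as were 30 of those without it. A missing run says only that these letters are not in the window of the annotated start.

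Of 86 ribosomal protein genes, 82 were lower in 129/B6, 2 were higher and 2 were not called, with a median log2 change of -1.90. Rpl14 had 1183, 1289 and 1254 FPKM in 129/B6 against 9878, 5469, 8185 and 7337 FPKM in C57/B6 (log2 change -2.56 ± 0.20, adjusted p = 8.8e-06). Rpl28 had 1275, 1266 and 1254 FPKM in 129/B6 against 9905, 5717, 8404 and 7181 FPKM in C57/B6 (log2 change -2.56 ± 0.19, adjusted p = 7.3e-06), and Fau, whose product is cleaved into a ribosomal protein, had 1140, 1102 and 844 FPKM in 129/B6 against 7677, 4399, 6694 and 6008 FPKM in C57/B6 (log2 change -2.54 ± 0.21, adjusted p = 1.1e-05). C57/B6 ESC 4 was the lowest of its side for all 3 and still above every 129/B6 library. Rpl41 was lower (log2 change -2.41 ± 0.21, adjusted p = 1.4e-05), and Rpl15 was lower by less (log2 change -1.0 ± 0.14, adjusted p = 0.00018). The paralog gene Rpl10l, known from testis, was higher, with 72.5, 67.4 and 119 FPKM in 129/B6 against 25.6, 19.4, 25.99 and 23.3 FPKM in C57/B6 (log2 change 1.95 ± 0.21, adjusted p = 4.1e-05). Rpl39l, another such paralog gene, was higher as well (log2 change 0.77 ± 0.25, adjusted p = 0.021), a call lost without C57/B6 ESC 4 or iPSC 3. The muscle paralog gene Rpl3l, at 3.65 FPKM or less in every library, was not called (log2 change -0.30). Rps4l, a second copy of a small-subunit gene, was not called (log2 change 0.08). Paralogs and processed pseudogenes share reads with their source genes, so single values in this family are uncertain. Without TMM the count was again 82 lower, with 3 higher.

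The share of all assigned fragments in these genes was 10.3%, 10.6% and 8.58% in 129/B6 and 29.1%, 21.5%, 25.9% and 24.7% in C57/B6. The means were 9.81% ± 1.07 in 129/B6 (SD, n = 3) and 25.3% ± 3.14 in C57/B6 (SD, n = 4), and the difference was -15.5 percentage points. The exact two-sided permutation test gave p = 0.0571, the smallest that 3 against 4 samples allow, so the design cannot reach 0.05. The other 129/B6 libraries of the series had 5.84% to 10.3%, and the C57/B6 MEF libraries 4.10% and 4.09%. The high share was seen in the 4 C57/B6 pluripotent libraries and not in the C57/B6 fibroblast libraries. These fibroblast libraries carry the same code prefix but differ in cell type and passage, and the cause of the high share was not tested.

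**Figure D3:**
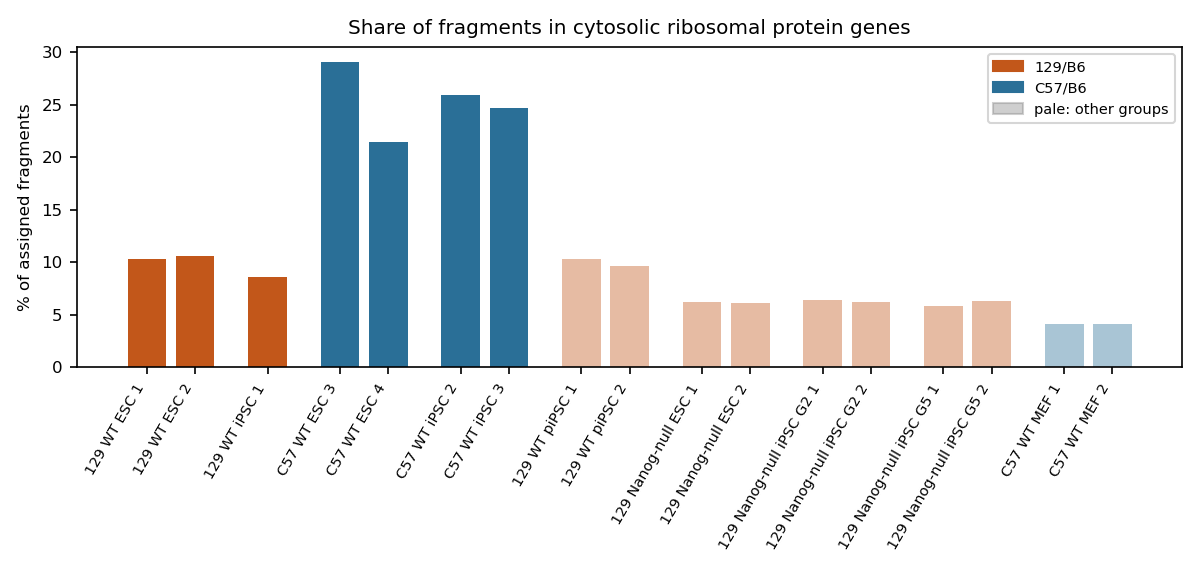
Percent of assigned fragments in cytosolic ribosomal protein genes (y axis, from 0) in each of the 17 libraries (x axis), with the 7 compared libraries in full colour and the other groups pale. The 4 C57/B6 pluripotent libraries reach 21.5% to 29.1%, and every other library is at or below 10.6%.

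Gene length moved with this result. Among fragments outside the ribosomal protein genes, the shortest tercile of genes took 26.7% ± 0.289 in 129/B6 (SD, n = 3) and 42.2% ± 2.74 in C57/B6 (SD, n = 4). The longest tercile took 39.9% ± 0.515 in 129/B6 and 24.0% ± 2.30 in C57/B6 (exact permutation p = 0.0571 for each). In the C57/B6 MEF libraries the shortest tercile took 22.2% and 22.3%. Ribosomal protein genes have a median exon length of 1736.5 bases, in the second decile of length, where other genes had a median log2 change of -0.65. Among the ribosomal protein genes in the middle tercile of length, where all genes had a median of 0.08, 11 of 11 were lower with a median of -1.74. Length here is the union of all exons of a gene, which can exceed the transcript that is expressed. Genes of the same tercile are therefore not matched by transcript length, and the part of length in this result was not tested.

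**Figure D4:**
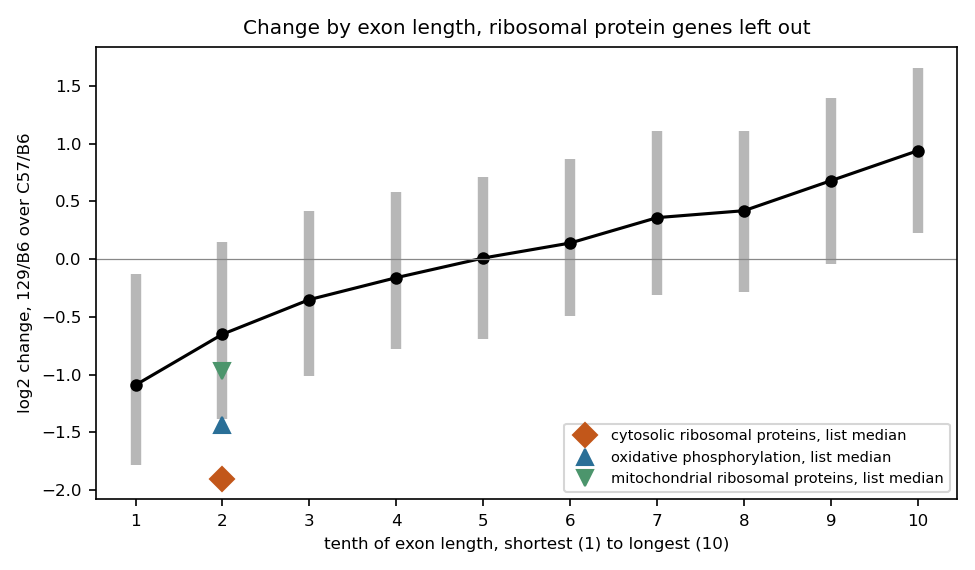
Median log2 change of 129/B6 over C57/B6 (y axis; points, with grey bars from the lower to the upper quartile) by decile of exon length from shortest to longest (x axis), with ribosomal protein genes left out and 3 list medians drawn at the decile of their median length. The medians run from -1.09 to 0.94, and the ribosomal protein list at -1.90 lies below the -0.65 of its decile.

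Other parts of the translation machinery moved less evenly. Of 20 other genes with TOP messages, 16 were lower and 1 higher (median -0.86), and without TMM 12 were lower. The elongation factor gene Eef1b2 had 1311, 1439 and 1329 FPKM in 129/B6 against 6792, 3858, 5655 and 5312 FPKM in C57/B6 (log2 change -1.88 ± 0.17, adjusted p = 2e-05), and Tpt1 was lower too (log2 change -1.73). Eef2 was only slightly lower (log2 change -0.43 ± 0.14, adjusted p = 0.021) and had 0.03 without TMM, and it was not called without 129/B6 iPSC 1 (log2 change -0.30, adjusted p = 0.058). Pabpc1, the poly(A)-binding protein gene, was higher, with 575, 552 and 676 FPKM in 129/B6 against 446, 396, 453 and 409.8 FPKM in C57/B6 (log2 change 0.80 ± 0.12, adjusted p = 0.00027). Genes that build ribosomes were not lower as a list, with 9 of 30 higher and 11 lower (median -0.08, and 0.39 without TMM). The RNA polymerase I subunit gene Polr1a had 22.9, 23.3 and 26.1 FPKM in 129/B6 against 7.51, 8.23, 7.91 and 8.72 FPKM in C57/B6 (log2 change 1.66 ± 0.11, adjusted p = 4.5e-06), and the nucleolar factor gene Tcof1 had 35.2, 39.6 and 47.05 FPKM in 129/B6 against 10.4, 9.65, 9.03 and 11.7 FPKM in C57/B6 (log2 change 2.09 ± 0.14, adjusted p = 4.6e-06). The small snoRNP genes Nhp2 (log2 change -1.92) and Nop10 (log2 change -1.91) were lower, with exon lengths of 1146 and 1109 bases, against 11871 for Polr1a.

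Genes of mitochondria and glycolysis were lower as well. Of 76 mitochondrial ribosomal protein genes, 69 were lower and 1 higher (median -0.97), and without TMM 47 were lower and 4 higher. Of 74 oxidative phosphorylation genes, 71 were lower and 2 higher (median -1.44). Their median exon lengths were 2172 and 1737 bases, so the length gradient runs with them too. In the glycolysis and hypoxia list 17 of 22 were lower and 3 higher, with a median of -1.65 at a median length of 4123.5 bases. Pgk1, which encodes phosphoglycerate kinase, had 621, 523 and 366 FPKM in 129/B6 against 3186, 2754, 3391 and 3187 FPKM in C57/B6 (log2 change -2.55 ± 0.19, adjusted p = 7.8e-06). Ldha, which encodes lactate dehydrogenase A, was lower (log2 change -2.03), as was Gapdh (log2 change -1.94). Hk1 and Pfkp, of the early steps, were higher (log2 changes 1.23 and 1.39). Among genes of the middle tercile of length alone, 7 of 7 tested glycolysis genes were lower, against 1380 of all 4829 genes in that tercile. This tercile is by union of exons, so transcript lengths were not matched here either.

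Epithelial genes were lower in 20 of 32 cases, higher in 7 and not called in 5, with a median of -1.09. The partner keratin genes of simple epithelium differed most. Krt18 had 6.86, 6.84 and 1.904 FPKM in 129/B6 against 472, 308, 270.5 and 263 FPKM in C57/B6 (log2 change -5.91 ± 0.48, adjusted p = 1.1e-05), and Krt8 had 6.46, 6.59 and 2.299 FPKM in 129/B6 against 200.3, 153, 98.4 and 106 FPKM in C57/B6 (log2 change -4.69 ± 0.43, adjusted p = 1.9e-05). On each side the iPSC had less of both than the ESC. Krt19 had 5.31, 4.27 and 0.633 FPKM in 129/B6 against 74.9, 53.4, 50.7 and 52.5 FPKM in C57/B6 (log2 change -3.97 ± 0.58, adjusted p = 0.00025). Cldn6, a tight junction gene of pluripotent cells, had 6.41, 6.23 and 2.49 FPKM in 129/B6 against 87.99, 63.5, 98.3 and 98.6 FPKM in C57/B6 (log2 change -4.04 ± 0.33, adjusted p = 1.2e-05). Esrp1, an epithelial splicing regulator gene, had 0.852, 0.761 and 0.365 FPKM in 129/B6 against 12.1, 12.2, 12.9 and 11.9 FPKM in C57/B6 (log2 change -4.33). Rab25, a trafficking gene, had 1.05 to 1.14 FPKM in 129/B6 and 13.6 to 25.5 FPKM in C57/B6 (log2 change -4.5). Epcam, an adhesion gene of ESC, had 35.6, 35.3 and 15.1 FPKM in 129/B6 against 187, 169.7, 244 and 235 FPKM in C57/B6 (log2 change -2.78 ± 0.30, adjusted p = 4.3e-05).

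The E-cadherin gene Cdh1 ran against these, with 163, 159 and 71.6 FPKM in 129/B6 against 28.6, 36.3, 33.3 and 35.4 FPKM in C57/B6 (log2 change 2.04 ± 0.26, adjusted p = 0.0001). So did the junction scaffold gene Tjp1, with 21.3, 21.8 and 20.7 FPKM in 129/B6 against 5.03, 9.81, 5.82 and 6.03 FPKM in C57/B6 (log2 change 2.11 ± 0.21, adjusted p = 3.2e-05). Dsp, which encodes desmoplakin, had 12.2, 11.2 and 1.28 FPKM in 129/B6 against 0.824, 1.43, 0.456 and 0.678 FPKM in C57/B6 (log2 change 3.53 ± 0.68, adjusted p = 0.0013), and 129/B6 iPSC 1 lay within the C57/B6 range. Exon lengths were 4574 bases for Cdh1, 7811 for Tjp1 and 9659 for Dsp, which were higher. They were 1437 bases for Krt18, 1721 for Cldn6 and 6305 for Esrp1, which were lower. The part of gene length in this split was not tested. The interaction was called for 20 of the 32 members, against 10.5% of all genes. It was -1.63 for Epcam and -1.22 for Cdh1 (iPSC minus ESC, log2), and 129/B6 iPSC 1 was below the 129/B6 ESC for both.

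Mesenchymal genes were not simply the reverse of the epithelial ones. Of 13 tested, 6 were lower and 3 higher. Vim, which encodes vimentin, had 49.9, 53.03 and 96.4 FPKM in 129/B6 against 981, 728, 1001 and 761 FPKM in C57/B6 (log2 change -3.5 ± 0.26, adjusted p = 7.4e-06), and S100a4, a calcium-binding protein gene of motile cells, had 2.601, 1.29 and 3.56 FPKM in 129/B6 against 286, 150.4, 319.5 and 317 FPKM in C57/B6 (log2 change -6.66 ± 0.39, adjusted p = 2.8e-06). Both were thus lower on the side where the keratin genes were lower. Fn1, which encodes fibronectin, was higher, with 226, 222 and 208 FPKM in 129/B6 against 26.7, 30.6, 25.1 and 28.4 FPKM in C57/B6 (log2 change 3.1 ± 0.12, adjusted p = 9.4e-07). Cdh2, the N-cadherin gene, was not called (log2 change 0.97 ± 0.59, adjusted p = 0.17), with 3.98 FPKM in 129/B6 iPSC 1 and 1.24 FPKM or less in the others.

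Both sides were checked for markers of other cells, since feeder cells and differentiated cells can be present in such cultures. In bulk samples fewer cells of a type and less RNA per cell cannot be told apart. Among fibroblast and feeder genes, 16 of 24 were higher in 129/B6 and 6 lower. The median exon length of this list was 6318 bases, in a decile where 47.2% of all genes were higher and 19.3% lower. The summed level of the fibroblast and feeder genes was 307 to 450 FPKM in 129/B6 and 1119 to 1451 FPKM in C57/B6. Most of the C57/B6 sum came from Tagln, Acta2 and Mgp, with means of 632, 380 and 118 FPKM there. The sum therefore does not stand for the list, most of whose members were higher in 129/B6. Col1a1 had 50.4, 46.8 and 62.97 FPKM in 129/B6 against 6.07, 6.35, 6.38 and 8.44 FPKM in C57/B6 (log2 change 3.07 ± 0.16, adjusted p = 2.2e-06), against 1248 and 1230 FPKM in C57/B6 MEF. Tagln, a smooth muscle actin-binding protein gene, had 7.91, 10.2 and 7.26 FPKM in 129/B6 against 730.0, 528, 687 and 585 FPKM in C57/B6 (log2 change -6.15 ± 0.20, adjusted p = 9.4e-07), against 774 and 773 FPKM in MEF. Acta2 had 13.5, 17.6 and 9.88 FPKM in 129/B6 against 430.3, 332, 415 and 343 FPKM in C57/B6 (log2 change -4.72 ± 0.23, adjusted p = 1.7e-06), and Mgp was also lower (log2 change -5.82). The C57/B6 pluripotent libraries thus had Tagln at 527.5 to 730.0 FPKM, near MEF, and Col1a1 at 6.07 to 8.44 FPKM, far from it. The part of feeder cells in either set was not tested. Exon lengths were 6563 bases for Col1a1, which was higher, and 1988 for Tagln, 2196 for Acta2 and 1187 for Mgp, which were lower. The part of gene length was not tested either.

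Macrophage genes were lower in 4 of 5 cases, with summed levels of 13.0 to 13.7 FPKM in 129/B6 and 67.9 to 95.3 FPKM in C57/B6, with Lyz2 (log2 change -3.66) and Cd68 (log2 change -2.17) among the members called. The median exon length of the macrophage list was 1316 bases, in the shortest decile, where 63.4% of all genes were lower. The defining markers Csf1r and Ptprc were at 0.652 FPKM or less in all 7. Primitive endoderm genes were lower in 10 of 18 cases and higher in 3. Cubn, an endocytic receptor gene of visceral endoderm, had 0.0444, 0.0138 and 0.00561 FPKM in 129/B6 against 3.61, 3.21, 5.85 and 5.07 FPKM in C57/B6 (log2 change -6.4 ± 0.42, adjusted p = 4.6e-06). Apoa1, an apolipoprotein gene of the same tissue, was lower (log2 change -4.87), as was the transthyretin gene Ttr, with 0, 0 and 0.0302 FPKM in 129/B6 against 2.26, 2.27, 2.49 and 2.08 FPKM in C57/B6. The lineage factors were low on both sides, with Gata6 at 0.240 to 0.359 FPKM in 129/B6 and 0.535 to 0.773 FPKM in C57/B6, and Gata4 not called (log2 change 0.02). Of 9 trophoblast genes tested 3 were higher and 4 lower, of 8 mesoderm genes 3 were higher and 2 lower, and of 7 neural genes 1 was higher. The neural count was 0 to 2 when each sample was left out in turn.

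Genes of the 2-cell stage, which mark a rare state of ESC cultures, were higher in 129/B6 for 9 of 9 tested, with a median log2 change of 7.39. Zscan4c had 15.2, 15.5 and 114 FPKM in 129/B6 against 0.614, 0.199, 0.355 and 0.195 FPKM in C57/B6 (log2 change 7.34 ± 0.93, adjusted p = 0.00011). Zscan4d and Zscan4f, its near-identical copies, which share reads with it, had log2 changes of 7.39 and 8.82. The level in 129/B6 iPSC 1 was the highest, and without it the change of Zscan4c was smaller (log2 change 5.7, adjusted p = 4.9e-08). In C57/B6 no library passed 0.614 FPKM for Zscan4c. Zfp352, a zinc finger gene of the same stage, had 1.14, 1.45 and 12.3 FPKM in 129/B6 against 0.108, 0.141, 0.04704 and 0.124 FPKM in C57/B6 (log2 change 5.53 ± 0.99, adjusted p = 0.00088). DESeq2 gave no adjusted p for most of these genes and called 3.

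The 12 genes with the largest rises among called genes, with no overlap and a mean of at least 5 FPKM on the higher side, were headed by this class, with Zscan4f, Zscan4e, Zscan4b, Zscan4d and Zscan4c among them. Gm8994, Gm3395, Gm12800, Gm5662 and Gm6507 were also among the 12, as were Bhmt and Dmgdh, enzymes of betaine and dimethylglycine breakdown. Bhmt had 21.7, 23.6 and 1.03 FPKM in 129/B6 against 0.205, 0, 0.0444 and 0.0585 FPKM in C57/B6, and Dmgdh had 10.8, 11.3 and 0.492 FPKM in 129/B6 against 0, 0.0495, 0.0331 and 0.0727 FPKM in C57/B6. For these enzymes 129/B6 iPSC 1 was far below the 129/B6 ESC. That it was above every C57/B6 library was set by the rule of no overlap. The 12 largest falls held the sarcomere genes Acta1, with 0.0798, 0.0666 and 0.1002 FPKM in 129/B6 against 55.2, 37.8, 20.9 and 26.1 FPKM in C57/B6, and Myl3, with 3, 1 and 1 fragments in 129/B6 against 114, 58, 76 and 206 fragments in C57/B6. They also held Tagln, Krt18 and S100a4, and Car4, a carbonic anhydrase gene, with 0.0597, 0.0742 and 0.648 FPKM in 129/B6 against 164, 104, 92.7 and 81.3 FPKM in C57/B6. Alb, which encodes albumin, was at 0 in 129/B6 and 1.553, 16.86, 2.394 and 2.105 FPKM in C57/B6, hence at least 97.7-fold lower from a floor of 3 fragments per library, and at least 33.5-fold lower without C57/B6 ESC 4. A gene the files call Mier2 (ENSMUSG00000091854) was likewise at least 55.2-fold lower. Spink3, Hist1h2af, Enpp2 and Cda made up the rest.

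**Figure D5:**
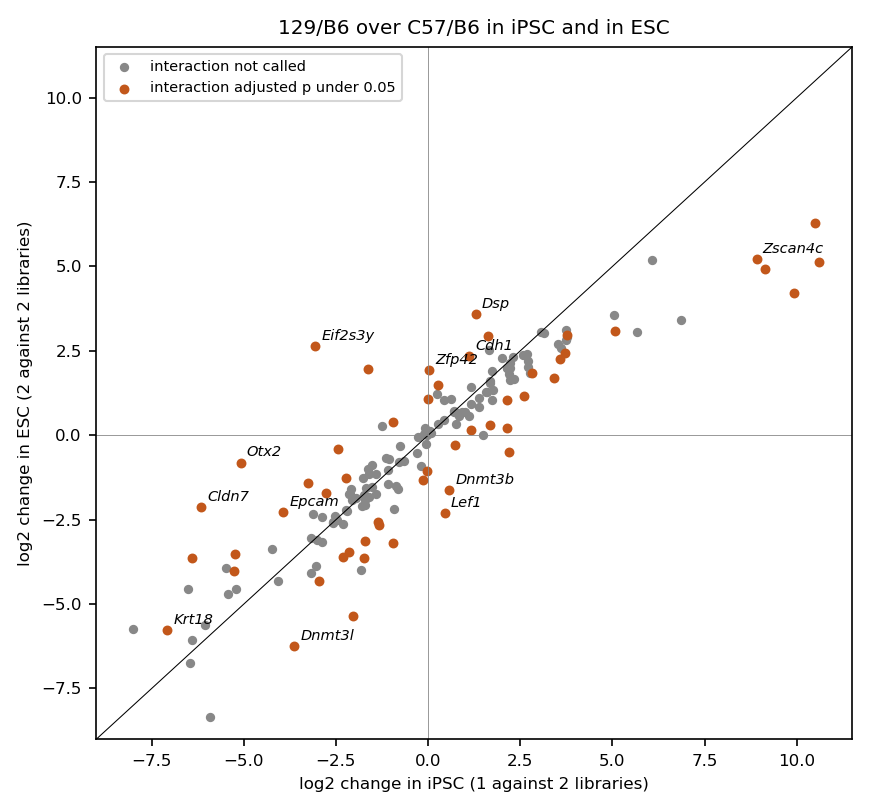
Log2 change of 129/B6 over C57/B6 in iPSC (x axis, 1 against 2 libraries) and in ESC (y axis, 2 against 2 libraries) for the list members named here, with orange points where the interaction was called and a line of equality. Zfp42, Dnmt3b, Lef1, Otx2 and Eif2s3y lie off the line, with interactions of -1.88, 2.24, 2.78, -4.26 and -5.67.

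Genes that vary with sex and strain were read beside the labels. Eif2s3y, a Y-linked gene, had 10.5, 10.9 and 1.93 FPKM in 129/B6 against 2.06, 2.63, 15.9 and 14.3 FPKM in C57/B6. It was therefore low in 129/B6 iPSC 1 and in both C57/B6 ESC, and the sides did not separate by it. Ddx3y, another Y-linked gene, had 4.21, 3.67 and 0.873 FPKM in 129/B6 against 0.8203, 1.31, 2.72 and 2.84 FPKM in C57/B6. Of 6 sex-linked genes tested, 2 were higher and 1 lower, and 1 was higher without any of 5 of the libraries (129/B6 ESC 1 and ESC 2, and C57/B6 ESC 3, iPSC 2 and iPSC 3). Nnt, which carries a deletion in the C57BL/6J substrain, had 7.35, 7.99 and 10.7 FPKM in 129/B6 against 15.1, 16.5, 13.7 and 12.7 FPKM in C57/B6 (log2 change -0.59 ± 0.17, adjusted p = 0.011). It was not low in C57/B6, and the labels name no substrain. Ifi202b was lower in 129/B6, with 2.07, 1.21 and 2.84 FPKM in 129/B6 against 11.2, 10.3, 15.7 and 13.6 FPKM in C57/B6 (log2 change -2.55). Of the 3 strain-variant genes tested, 1 was not called. Genotypes at these genes were not read, so their levels do not show whether the strain labels hold. In the p53 and stress list 6 of 14 were higher and 5 lower.

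The 129/B6 libraries without Nanog give levels of the same genes within 129/B6. Over 6 such libraries, Klf4 ranged from 20.5 to 30.4 FPKM, Tfcp2l1 from 71.0 to 79.3 FPKM and Cdx1 from 10.2 to 13.7 FPKM. Egr1 stayed between 0.204 and 1.40 FPKM and Dusp6 between 2.45 and 3.70 FPKM, both below every C57/B6 library. Krt18 ranged from 187 to 751 FPKM and Dnmt3l from 22.4 to 131 FPKM, and Krt18 thus overlapped the C57/B6 range within 129/B6. Tagln had 43.2 to 62.4 FPKM there.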

How the data were processed

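RNA was sequenced from 17 samples, of which 7 were compared. The authors deposited, per the file headers, an estimated count of fragments (raw fragments) and an FPKM value for 28670 genes per sample. Tools listed in the submitters' processing notes are Cuffdiff 2.1.1, TopHat2 2.0.7, CASAVA and Bowtie2 2.0.5. The notes give 2 genome builds with no role, so no coordinates are taken from the files. Counts were rounded; 96.8% to 98.0% were whole within 0.01. The 9 genes whose deposited status was not OK (failed, or too much data) in any of the 7 samples were left out. edgeR 4.0.16 (R 4.3.3; TMM, filterByExpr, quasi-likelihood test, Benjamini-Hochberg over 15033 genes) compared the 2 sides. DESeq2 1.42.0 and limma 3.58.1 on log2(FPKM + 1) and log2(FPKM + 0.1) were alternatives. Shares were tested by exact permutation (scipy 1.17.1). On simulated counts in which 14833 of 15033 genes did not change, the test recovered 48.0% of 2-fold and 90.0% of 4-fold changes. In the data 68.1% of genes were called, so the adjusted threshold is less strict there. These recovery shares therefore do not carry over to the data. Folds against a side at 0 use a floor of 3 fragments per library, which covers counting error only. Lists held 674 places, of which 643 were tested, 22 fell below the filter, 5 were not matched and 4 had a status other than OK. Named genes are list members and, per direction, the 12 largest called changes without overlap, with a mean of at least 5 FPKM on the higher side and one sign in ESC and iPSC. Members, lists and comparisons were chosen with earlier results of these data known. Exon length is the union of a gene's exons in the GENCODE vM21 annotation, found for 14495 of the genes tested, and promoter sequences are RefSeq's on GRCm38.p6. Results for some genes are not reported here.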

Additional observations from a re-analysis of the deposited data

Results flagged for a closer look

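Of 186 values checked on the C57/B6 side, 15 had 1 library far from the other 3, where chance flags about 1 in 20. C57/B6 ESC 4, the library with the fewest fragments, was the outlying library for 12 of them. It had 5.12 FPKM for Nr5a2, 5.81 for Zic2, 13.9 for Stat3, 8.48 for Fgfr2, 12.3 for Tet1, 7.44 for Tet2 and 4.70 for Zeb1, each above the other 3 libraries. It also had 505.6 FPKM for H19, 253.5 for Rps4l and 309.8 for Ncl, and 0.578 for Snai1 and 16.9 for Alb. C57/B6 ESC 3 stood out for Krt19 at 74.9 FPKM. C57/B6 iPSC 3 stood out for Col1a1 at 8.44 FPKM and for Gm6507 at 0.0860 FPKM.

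The interaction test called a side difference unequal in iPSC and ESC for 55 of 185 named genes, which were chosen with results known, against 10.5% of all genes. The values below are the log2 change in iPSC minus that in ESC, and the iPSC change rests on 129/B6 iPSC 1 alone. Cell type, that library and the level of Y-linked genes, which follows the same contrast, therefore cannot be told apart. The difference was above 0, with 0.82 for Tbx3, 1.16 for Nr0b1, 1.45 for Lin28a, 1.48 for Dppa2, 1.75 for Zic2, 2.29 for Etv4, 1.35 for Spry4, 1.07 for Spry2 and 1.35 for Dusp6. Above 0 as well were 1.39 for Myc, 1.21 for Ccnd1, 1.33 for Axin2, 2.06 for Notum, 1.93 for Ascl2, 2.78 for Lef1, 2.64 for Dnmt3l, 1.04 for Dnmt3a and 2.24 for Dnmt3b. Further values above 0 were 1.35 for Dazl, 1.06 for Hormad1, 1.35 for Igf2, 1.40 for Dlk1, 3.32 for Nnat, 1.26 for Twist1, 1.93 for Zeb1, 2.71 for Cdh2 and 1.03 for Col3a1. Above 0 as well were 3.72 for Zscan4c, 4.24 for Zscan4d, 4.23 for Zscan4f, 5.49 for Zscan4e, 5.73 for Zscan4b, 3.45 for Gm5662 and 4.5 for Car4. It was below 0, with -1.88 for Zfp42, -2.01 for Dppa3, -1.27 for Lefty2, -4.26 for Otx2, -0.94 for Mapk3, -1.81 for Sycp3, -1.22 for Cdh1, -1.63 for Epcam and -1.26 for Krt18. Below 0 as well were -2.75 for Krt19, -1.69 for Cldn6, -3.99 for Cldn7, -1.21 for Esrp1, -2.23 for Dsp, -1.30 for Gata4, -1.03 for Tfap2c, -5.67 for Eif2s3y and -3.56 for Ddx3y. Further values below 0 were -1.05 for Ldha, -1.20 for Hk1 and -5.84 for Dmgdh.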

How the results depend on the processing

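Without any 1 sample, edgeR called 9016 to 11218 genes, 4824 to 5885 higher and 4192 to 5333 lower, and the ribosomal protein share differed by -16.76 to -14.23 percentage points. A fold of at least 2 left 6409 genes, 3533 higher and 2876 lower. The middle tercile of gene length, chosen after seeing the data, held 3054 calls, 1674 higher and 1380 lower. Library totals in place of TMM gave 2960 lower, and 909 genes with an interaction, against 668 by limma. The ribosomal share of summed FPKM differed by -19.2 points. Signs turned for the following genes among those called in at least 1 of the 2 fits, and other changes of sign were between values that were not called. Without TMM these were Fgf4 (0.35), Eef2 (0.03), Ncl (0.03) and Nop58 (0.47). In iPSC alone they were Lef1 (0.45), Dnmt3b (0.57), Gata4 (-0.94), Tfap2c (-0.01) and Ddx3y (-1.62), in ESC alone Eif2s3y (2.63), and with all samples in the fit Gata4 (-0.32). Spry2 ranged from -0.31 to 0.39 without 1 sample. The cause of these changes was not tested. Of 163 named genes called, 153 were called without any 1 sample. No paired analysis was possible because ESC and iPSC of the 2 sides share no replicate numbers. Precision is limited by 3 and 4 samples a side and by the 7.80 M fragments in C57/B6 ESC 4.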
